A study of Mus musculus with 31 samples.

Results

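The genes described here are 8 regulators of neural development and the gene of the repressor REST, 9 of the 21938 protein-coding genes of the annotation. The neural genes were Neurog1, Neurog2, Neurod1, Olig2, Pou3f2, Myt1l, Pax6 and Otx2. They were listed by name, and every ATAC-seq peak within 1 kb of an annotated TSS, elsewhere in the gene or up to 50 kb from the gene was taken. In all, 37 of the 63456 peaks met this rule, and no peak was counted for more than 1 of the genes.

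The study asked how the association of TFs with mitotic chromosomes relates to their behaviour in interphase, and used ATAC-seq to map accessible chromatin in NIH-3T3 cells. In ATAC-seq the transposase Tn5 inserts adapters into DNA that nucleosomes leave free, and places where many fragments stack are called as peaks. The peaks come from 1 library of the parental line, an immortalized mouse embryonic fibroblast line that carries no transgene, made from 50000 cells. The other 30 samples of the series, from lines that overexpress 1 of 13 TFs or rtTA3G alone, were not analysed here. The study's methods add doxycycline to NIH-3T3 cells before ATAC-seq in general, whereas the labels of the parental library list none. Without a second library neither replicate error nor a test between samples could be given, and the values describe this library alone.

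The proneural bHLH proteins NEUROG1, NEUROG2 and NEUROD1 pair with E proteins such as TCF3, TCF4 and TCF12 on E-boxes and drive precursors into neuronal differentiation, and ID proteins block that pairing. POU3F2 and MYT1L are TFs used in mixes that convert fibroblasts into neurons. Outside the nervous system REST binds a long element called RE1 and, through corepressors such as RCOR1 and SIN3A, keeps many neuronal genes off.

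Chromatin at the neural genes was mostly without peaks in these fibroblasts, whereas the start of Rest was covered by a wide peak. A peak lay within 1 kb of a TSS for 2 of the 9 genes, Rest and Myt1l, against 53.7% of all protein-coding genes. The call of Myt1l came from a transcript start deep inside the gene and not from its main promoter. A peak lay in the gene body of the same 2 genes, against 63.2% of protein-coding genes. Neurog1, Neurog2, Olig2, Neurod1 and Pou3f2 are only 1.69 to 5.59 kb long, against a median of 17.4 kb for protein-coding genes. The body count was not adjusted for gene length. A peak lay within 50 kb of 5 of the 9 genes, against 84.2%. The genes without any were Neurog2, Pou3f2, Pax6 and Otx2. The median of the 9 genes was 1 peak within 50 kb, and that of all protein-coding genes was 5. Peak lists show where accessibility passed the threshold of the caller and carry no RNA, so they do not say whether a gene was expressed.

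**Figure D1:**
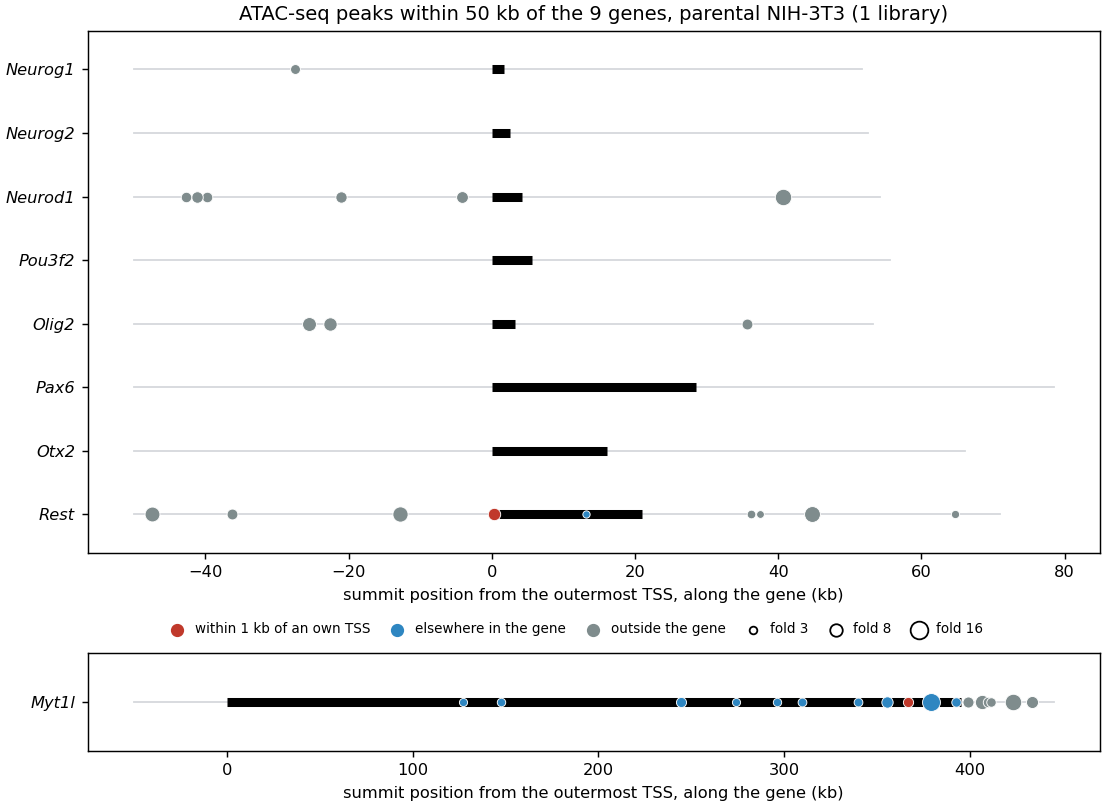
Each row is 1 gene, drawn along its own direction of transcription, with the gene as a black bar, the 50 kb to either side as a grey line and each ATAC-seq peak as a dot at its summit (x axis: distance from the outermost TSS in kb; dot area: fold enrichment). The rows of Neurog2, Pou3f2, Pax6 and Otx2 hold no dot, and the 18 peaks of Myt1l lie from 127 kb to 433 kb past its first TSS.

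Fold enrichment is the fragment pileup at the summit over the local pileup that the peak caller expected, each with 1 added. Its −log10 q is the evidence for that excess within the library. The median fold enrichment of the list was 8.03 for the 16264 peaks within 1 kb of a TSS and 5.54 for the 47192 TSS-distal peaks. The median summit lay under 29 fragments and the lowest under 10, so weaker accessibility could not be called at this depth. The 33 TSS-distal peaks near the 9 genes had a median fold enrichment of 5.72, and 15 of them were at or below the median of all TSS-distal peaks. Intervals given after a fold enrichment are 95% Poisson intervals of the fragment number and cover counting error only.

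The label of a fibroblast was checked on marker genes. A TSS peak was present at 14 of 15 fibroblast markers, with Lum as the exception, and at 1 of 12 neuronal markers. That gene was Ncam1, a cell adhesion gene, with a fold enrichment of 7.22. The 14 fibroblast genes had a median fold enrichment of 6.47, against 9.86 over all protein-coding genes with a TSS peak. Snai2 (11.7) and Fn1 (10.5) were the highest and Thy1 (3.41) and Prrx1 (3.65) the lowest.

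Most neural genes lacked a TSS peak although their promoters were rich in CpG, the kind of promoter that is usually accessible. A promoter was called CpG-rich when at least 50% of the bases within 500 bp of the outermost TSS were G or C and the CpG count was at least 0.6 of that expected from the composition. Among CpG-rich promoters 82.9% of protein-coding genes had a TSS peak, and among other promoters 30.4%. Of the 9 genes 7 had a CpG-rich promoter, and Rest was the 1 with a peak. The 6 CpG-rich neural genes without a TSS peak were Neurog1, Neurog2, Neurod1, Olig2, Pou3f2 and Otx2. The trait was shared by similar genes in lists described below. A TSS peak was present at 1 of 6 CpG-rich neuronal bHLH relatives and 1 of 8 CpG-rich POU, MYT, PAX and OTX relatives. The CpG-rich neuronal markers had one at 1 of 8, and the CpG-rich mesenchymal TF genes at 9 of 9. Pax6 was just under the limit, at 55.8% G and C and a CpG ratio of 0.568, and Myt1l was far below it at 46.7% and 0.350.

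The promoter sequences show this contrast among the neural genes. The 250 bases before the RefSeq start (GRCm38.p6) are given for the closed promoters of Neurog2 (chr3:127632886-127633135, + strand) and Pou3f2 (chr4:22488367-22488616, − strand), both CpG-rich, and for the CpG-poor Myt1l (chr12:29528134-29528383, + strand). Each CpG is in capitals.
Neurog2: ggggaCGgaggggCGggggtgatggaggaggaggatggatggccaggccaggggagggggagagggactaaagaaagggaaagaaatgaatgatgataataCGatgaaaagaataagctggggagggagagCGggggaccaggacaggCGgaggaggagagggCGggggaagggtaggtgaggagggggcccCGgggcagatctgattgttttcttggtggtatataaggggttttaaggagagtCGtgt
Pou3f2: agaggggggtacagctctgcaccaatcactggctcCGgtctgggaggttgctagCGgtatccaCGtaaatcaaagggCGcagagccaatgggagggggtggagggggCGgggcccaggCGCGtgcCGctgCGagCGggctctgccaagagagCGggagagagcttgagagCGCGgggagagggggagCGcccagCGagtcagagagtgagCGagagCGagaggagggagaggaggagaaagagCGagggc
Myt1l: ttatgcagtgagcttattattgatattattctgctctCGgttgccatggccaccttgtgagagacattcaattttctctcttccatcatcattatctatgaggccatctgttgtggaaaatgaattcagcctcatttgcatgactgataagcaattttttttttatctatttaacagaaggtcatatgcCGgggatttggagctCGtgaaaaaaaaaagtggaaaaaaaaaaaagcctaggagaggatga
The Pou3f2 stretch holds 18 CpG, that of Neurog2 holds 8 and that of Myt1l holds 3. No ATAC-seq peak overlapped any of them.

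The CpG ratio was 0.679 for Neurod1, 0.756 for both Neurog1 and Olig2, and 0.770 for Otx2. Of all protein-coding genes with a ratio from 0.6 to 0.8, 78.3% had a TSS peak, and none of these 4 did. Pou3f2 (0.803) and Neurog2 (0.851) fell in the next range, from 0.8 to 1, where 88.3% of genes had one. Rest, at 1.05, was in the highest range, in which 89.9% of genes had a TSS peak. The promoter of Myt1l was in a range where 30.1% of genes had one, and that of Pax6 in a range with 54.2%.

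**Figure D2:**
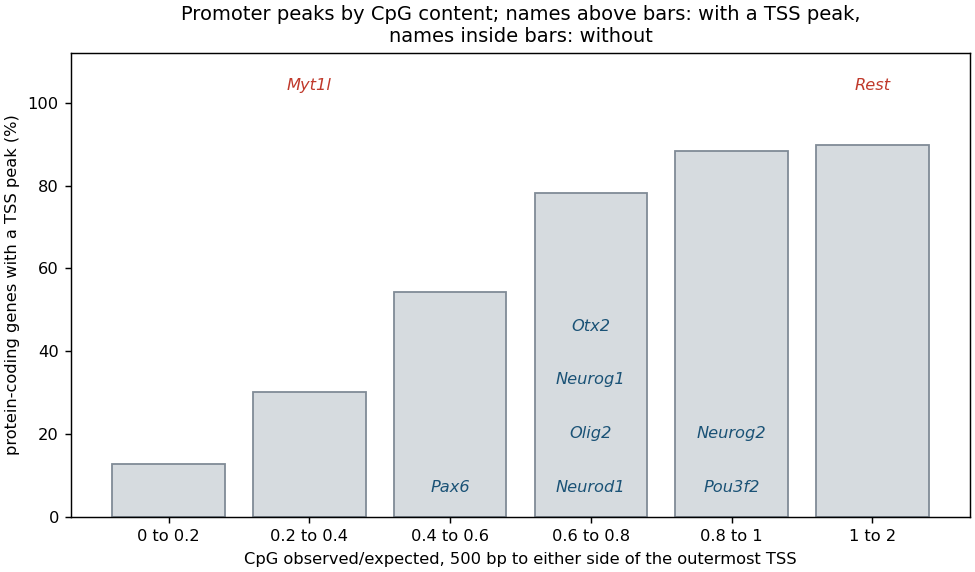
Bars give the percentage of protein-coding genes with a peak within 1 kb of a TSS (y axis) in 6 ranges of the CpG observed/expected ratio around the outermost TSS (x axis). Names inside a bar are the genes without a peak near any annotated TSS, and names above the bars those with one. Myt1l stands above its bar through an internal start, and its outermost TSS, whose CpG ratio is used, had no peak. The 6 names from 0.6 to 1 stand in bars of 78.3% and 88.3%.

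Neurog1 and Neurog2, the neurogenins, are short genes that start neuronal differentiation in the embryonic nervous system. Neurog1 (ENSMUSG00000048904, chr13:56250478-56252163, − strand) had no peak within 20 kb and a single peak within 50 kb. That peak, at chr13:56279581-56279839, lay 27.4 kb upstream between genes, with a fold enrichment of 4.99 (3.06 to 7.73) from 18 fragments (−log10 q = 7.37). It is nearest to the 5′ end of Cxcl14, a chemokine gene. Neurog2 (ENSMUSG00000027967, chr3:127633135-127635631, + strand) had none. Its nearest peaks were 60.2 kb upstream in Zgrf1 (fold enrichment 8.55, −log10 q 22.5) and 64.2 kb downstream in Alpk1 (3.94 and 4.31). Zgrf1 and Alpk1 are other protein-coding genes, so the flanking accessibility lay within the neighbours of Neurog2.

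Neurod1, a bHLH gene that acts after the neurogenins, had the closest peak of the 8 neural genes to its outermost TSS. The gene (ENSMUSG00000034701, chr2:79452521-79456751, − strand) had no TSS or body peak and 6 peaks within 50 kb, and 58.7% of protein-coding genes had as many or fewer. The closest peak, at chr2:79460794-79461000, lay 4.04 kb upstream in an exon of the lincRNA Gm26755, with a fold enrichment of 7.09 (4.72 to 10.3) from 26 fragments (−log10 q = 14.5). It was the 1 peak near the 9 genes that held a sequence like RE1. It is shown for that reason, on the + strand, with the RE1-like 17 bases at chr2:79460825-79460841 in capitals.
Neurod1 upstream peak: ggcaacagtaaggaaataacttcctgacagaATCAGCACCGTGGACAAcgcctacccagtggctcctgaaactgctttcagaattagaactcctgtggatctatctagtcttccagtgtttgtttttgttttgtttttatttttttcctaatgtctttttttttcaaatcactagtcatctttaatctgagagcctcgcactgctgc
The strongest of the 6 lay on the far side of the gene. A peak in an intron of Cerkl, at chr2:79415865-79416347 and 40.7 kb past the TSS, had a fold enrichment of 13.7 (10.7 to 17.4) and 68 fragments, at or above 95.5% of TSS-distal peaks. The 4 remaining peaks lay from 21.1 kb to 42.8 kb upstream between genes, with fold enrichments of 5.66, 5.72, 6.57 and 6.77. For these 4 and for the closest peak, the nearest 5′ end of a protein-coding gene was that of Cerkl and not of Neurod1. For the peak in the Cerkl intron it was that of Neurod1.

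Olig2, a bHLH gene of oligodendrocyte and motor neuron precursors, had 3 peaks within 50 kb and none in the gene (ENSMUSG00000039830, chr16:91225457-91228677, + strand). A pair of upstream peaks between genes stood out by fold enrichment, at 9.86 (7.45 to 12.8) 25.5 kb and 9.15 (6.90 to 11.9) 22.6 kb before the TSS. The third peak, 35.6 kb downstream at chr16:91260966-91261264, had a fold enrichment of 6.04 (3.88 to 9.01), and the nearest 5′ end is that of the related gene Olig1. The bases within 50 bp of its summit (chr16:91260994-91261094) hold TGAGTCA, the recognition sequence of AP-1 factors, here in capitals.
Olig2 downstream summit: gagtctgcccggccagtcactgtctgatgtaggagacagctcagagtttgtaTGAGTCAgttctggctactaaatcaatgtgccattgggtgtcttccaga
All 3 peaks lay outside annotated genes, and none was within 20 kb of Olig2.

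Pou3f2, a POU-domain TF gene of neural precursors also called Brn2, lay in the longest peak-free stretch of the 9 genes. The stretch of 2075 kb around its TSS was at least as long as that of 96.5% of protein-coding genes (ENSMUSG00000095139, chr4:22482780-22488366, − strand). Genes with a peak over the outermost TSS count as 0 kb in that share. The stretch reached 67.3 kb downstream to a peak in Fbxl4 with a fold enrichment of 11.6. Upstream it reached 2008 kb to a peak at the TSS of Mms22l with a fold enrichment of 16.4. No other protein-coding gene starts inside this stretch. Within 200 kb of Pou3f2 there were 2 peaks, against a median of 18 for protein-coding genes.

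Otx2 and Pax6, homeobox and paired-box genes of the forebrain and the eye, have many annotated transcripts and yet no TSS peak. Otx2 (ENSMUSG00000021848, chr14:48657677-48673819, − strand) has 10 annotated starts, and the nearest peak was 211 kb from the outermost one. That peak, in Tmem260, had a fold enrichment of 4.46, and the peak on the other side, 325 kb away and between genes, 4.99. Otx2 was the only 1 of the 9 genes without a peak within 100 kb, which holds for 11.8% of protein-coding genes. Pax6 (ENSMUSG00000027168, chr2:105668900-105697364, + strand) has 24 annotated starts in 28.5 kb. Its nearest peak lay 52.2 kb upstream in Pax6os1, an antisense transcript, with a fold enrichment of 7.0 from 28 fragments (−log10 q = 15.3). On the other side the first peak, in Elp4, was 127 kb from the TSS and had a fold enrichment of 9.93.

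**Figure D3:**
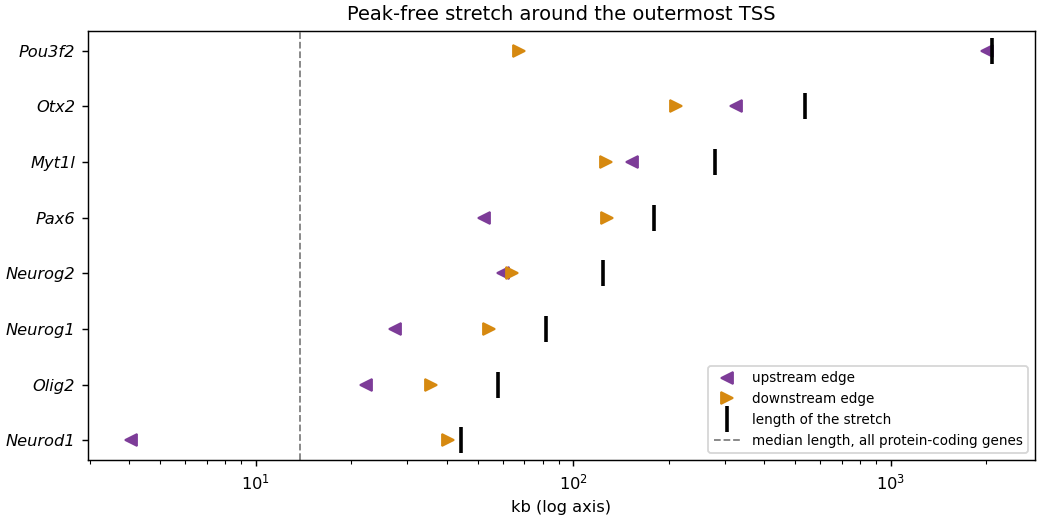
For the 8 genes with no peak at the outermost TSS, arrowheads give the distance from that TSS to the nearest peak upstream and downstream, and black ticks give the length of the whole peak-free stretch (x axis: kb, log axis). The stretches run from 44.4 kb at Neurod1 to 2075 kb at Pou3f2. The dashed line is the median of 13.8 kb over all protein-coding genes. It counts the 42.7% of genes with a peak over the outermost TSS as 0 kb, so it is no like comparison for these 8 genes.

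The peak-free stretches of the remaining genes were 57.7 kb at Olig2, 81.8 kb at Neurog1, 124 kb at Neurog2, 179 kb at Pax6, 280 kb at Myt1l and 536 kb at Otx2. The stretch at Neurod1 was at least as long as that of 64.0% of protein-coding genes and the one at Otx2 as that of 87.5%. Both shares count the 42.7% of genes with a peak over the outermost TSS as 0 kb. They therefore overstate the rank among genes without such a peak. Apart from the stretch at Neurod1, which also holds the start of Cerkl, the gene itself was the only protein-coding one to start in each. Stretch length also depends on how far apart genes lie.

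Myt1l, a zinc finger TF gene of postmitotic neurons, was the exception in number of peaks, with 18 within 50 kb, as many as or more than 98.1% of protein-coding genes. It is also by far the longest of the 9 (ENSMUSG00000061911, chr12:29528384-29923213, + strand, 395 kb, 10 starts). Its 11 body peaks, the TSS peak included, amount to 2.79 per 100 kb, against a median of 1.15 in the 567 protein-coding genes longer than 300 kb, of which 75.1% were at or below Myt1l. There was no peak at its first TSS, and the first body peak lay 127 kb into the gene. Of the body peaks 2 lay before the midpoint of the gene and 9 after it. The nearest outermost 5′ end of a protein-coding gene was that of Myt1l for those 2 peaks only. For the other 9, the TSS peak included, and for all 7 peaks outside the gene it was that of Pxdn, the next gene downstream.

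The TSS call of Myt1l rested on 1 narrow peak at chr12:29894785-29894972, which lay 366 kb into the gene. It had a fold enrichment of 5.33 (3.46 to 7.89) from 23 fragments (−log10 q = 9.77), and was 142 bp from the start of an internal transcript at 29895114 whose 5′ end the annotation marks as not found. Of the fold enrichments at protein-coding genes with a TSS peak, 11.1% were at or below it. The strongest peak of the gene was another one, in an intron at chr12:29906992-29907658, with a fold enrichment of 16.4 (13.4 to 19.8) from 105 fragments (−log10 q = 90.0). It was at or above 98.7% of all TSS-distal peaks. The 151 bases around its summit (chr12:29907196-29907346, + strand) are shown because this peak had the highest fold enrichment of the 37, with an E-box CAGATG in capitals.
Myt1l intronic summit: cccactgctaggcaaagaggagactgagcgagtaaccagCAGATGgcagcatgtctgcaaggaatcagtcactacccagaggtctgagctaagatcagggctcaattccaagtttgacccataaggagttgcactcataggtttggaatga
The other body peaks were weak. Of the 10 body peaks that were not the TSS peak, 8 were below the median of TSS-distal peaks. The remaining one above it, in an intron at chr12:29883208-29883451, had a fold enrichment of 6.58 (4.42 to 9.47). Fold enrichments of the other 8 ranged from 3.41 to 5.23, with 12 to 22 fragments at the summit, and 1 of them, at chr12:29920402-29920593, lay in an exon of Myt1l.

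The 7 peaks beyond the 3′ end of Myt1l lay between it and Pxdn, a peroxidase gene of the extracellular matrix, or inside Pxdn. They included the TSS peak of Pxdn at chr12:29937836-29938747, with a fold enrichment of 5.56. The strongest, in an intron of Pxdn at chr12:29950995-29951551, had a fold enrichment of 13.9 (11.8 to 16.3) and 150 fragments, the most of the 37 peaks. Another, between the genes at chr12:29934180-29934640, had a fold enrichment of 10.4. No peak lay in the 50 kb before Myt1l, so all its outside peaks were on the side of Pxdn.

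**Figure D4:**
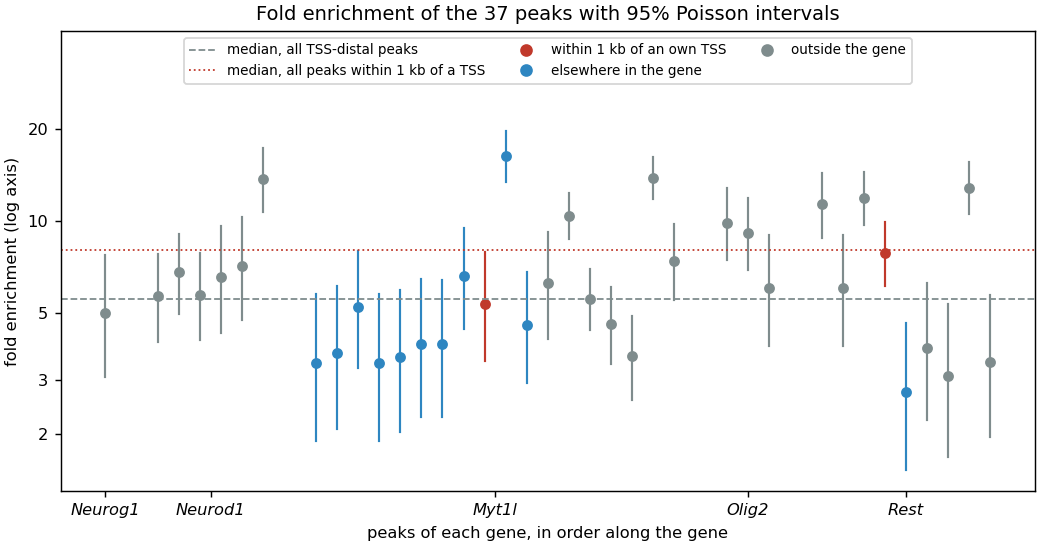
Points give the fold enrichment (y axis, log axis) of each of the 37 peaks, grouped by gene and in order along the gene (x axis), and bars are 95% Poisson intervals of the fragment number. The intronic Myt1l peak at 16.4 is the highest point, and the Rest body peak at 2.74 the lowest. Lines mark the medians of all TSS-distal peaks (5.54) and of all peaks within 1 kb of a TSS (8.03).

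Rest, the gene of the repressor, was the only 1 of the 9 with a peak over its own first TSS (ENSMUSG00000029249, chr5:77265491-77286432, + strand). The peak at chr5:77265059-77266938 covered both annotated starts and was 1880 bp wide, and 99.5% of TSS peaks were as wide or narrower. Its fold enrichment was 7.85 (6.12 to 9.92) from 68 fragments (−log10 q = 37.0), and its summit lay 0.33 kb past the TSS in an intron. The width was extreme and the height was not. Of protein-coding genes with a TSS peak 30.3% were at or below this fold enrichment, and the 83 TSS peaks at least as wide had a median of 8.68.

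Rest had 9 peaks within 50 kb, as many as or more than 79.2% of protein-coding genes. In the gene there was 1 further peak, at chr5:77278662-77278790, with the lowest fold enrichment of the 37 peaks, 2.74 (1.52 to 4.62; −log10 q = 1.77), and 84.5% of its bases were soft-masked as repeats. The strongest peak between Rest and its upstream neighbours lay 12.9 kb before the TSS at chr5:77252060-77252908, with a fold enrichment of 11.9 (9.68 to 14.5) from 98 fragments (−log10 q = 69.8). Its fold enrichment was higher than that of the TSS peak, with intervals that overlap slightly. Repeats cover 50.1% of its bases. The bases within 50 bp of its summit (chr5:77252566-77252666, + strand) are shown because they hold the AP-1 sequence, in capitals.
Rest upstream summit: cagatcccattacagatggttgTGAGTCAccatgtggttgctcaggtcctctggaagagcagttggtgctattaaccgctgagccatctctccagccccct
A second strong peak 47.5 kb upstream, at chr5:77217787-77218206, had a fold enrichment of 11.3 (8.82 to 14.3), and a narrow one 36.3 kb upstream 6.04. For both of these, the nearest 5′ end of a protein-coding gene was that of Spink2 and not of Rest. Downstream, the peak at chr5:77309445-77310748 had a fold enrichment of 12.9 and covered the TSS region shared by Noa1 and Polr2b, genes of a GTPase and of an RNA polymerase II subunit. The 3 other downstream peaks lay in introns of these genes, with fold enrichments of 3.11, 3.45 and 3.84.

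AP-1 sequences were counted at the summits of the peaks near the 9 genes. The sequence TGACTCA or its reverse complement TGAGTCA was present within 50 bp of the summit of 6 of the 33 TSS-distal peaks, 18.2% (exact binomial 95% interval 6.98 to 35.5%), against 26.4% of all TSS-distal peaks. Rest had it at 3 of 7 such peaks, Myt1l at 2 of 16, Olig2 at 1 of 3, Neurod1 at 0 of 6 and Neurog1 at 0 of 1, counts too small to rank the genes. The interval of the 33 peaks includes the share over all peaks. The E-box CAGATG, or CATCTG on the other strand, a form bound by neurogenic bHLH proteins, was present at 8 of the 33 summits, 24.2%, against 11.5% of all TSS-distal peaks. Of these 8 summits 5 were near Myt1l, 2 near Neurod1 and 1 near Rest. The E-box CAGCTG was at 3 of the 33, or 9.09% against 7.51%. TEAD sequences (GGAATG or CATTCC) were at 2, or 6.06% against 9.52%, and RUNX sequences (TGTGGT or ACCACA) likewise at 2, against 13.2%. The E-box, TEAD and RUNX searches were added after the peaks were seen. No interval was computed for their shares, and the differences from all TSS-distal peaks were not tested. A match describes the sequence and says nothing of binding.

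RE1-like sequences were searched on both strands of the genome as TTCAGCACC, any 2 bases and GGACAG, with up to 2 of the 15 letters changed. In all 8273 places matched, and 3.22% of them lay in a peak. Within 50 kb of the 9 genes there were 9 places, 3 near Rest and 2 each near Neurog2, Neurod1 and Myt1l. Each differed from the consensus at 2 letters. The 1 place in a peak was that in the upstream peak of Neurod1, 13 bp from the summit. For comparison, the 184 places in TSS-distal peaks lay at a median of 49.5 bp from the summit. A second place near Neurod1 is in its coding exon and had no peak within 6 kb. The match in the Neurod1 peak is set beside that in its exon, with bases that equal the consensus in capitals and the free bases and changed letters in lower case.
Neurod1 upstream (chr2:79460825-79460841, + strand): aTCAGCACCgtGGACAa
Neurod1 exon (chr2:79454331-79454347, − strand): TaCgGCACCatGGACAG

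Neuronal genes known as targets of REST carried closer matches, and most of those lay outside peaks too. REST binds RE1, so closer matches at these genes follow in part from how they were listed. With at most 1 letter changed there were 18 places near 15 of 18 target genes, and 3 of the 18, or 16.7%, were in a peak, against 9.18% of the 1067 such places in the genome. The 9 genes had none. The 3 places in peaks were near Syn1, Gria2 and Vgf, genes of a synaptic vesicle protein, a glutamate receptor subunit and a secreted neuropeptide precursor. At Syn1 the place was 146 bp and at Gria2 170 bp before the outermost TSS, in peaks with fold enrichments of 9.19 and 3.94. An exact match was present near 9 target genes, and 0 of these 9 lay in a peak, against 12.3% of the 195 exact matches of the genome. The matches of Syn1 and Gria2 are shown beside the exact one of Stmn2, which codes for a neuronal microtubule regulator and had no TSS peak.
Syn1 (chrX:20921134-20921150, − strand): TTCAGCACCgcGGtCAG
Gria2 (chr3:80802989-80803005, + strand): TTtAGCACCgcGGACAG
Stmn2 (chr3:8508230-8508246, + strand): TTCAGCACCacGGACAG
The nearest peak to the Stmn2 match was 67001 bp away.

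The relatives of the neural genes were mostly without TSS peaks, and the partners and corepressors mostly had them. Of 14 neuronal bHLH relatives, 1 had a TSS peak, Ptf1a, a bHLH gene of pancreas and cerebellum, with a fold enrichment of 3.38. Of 14 POU, MYT, PAX and OTX relatives, 2 had one, Pax3 (11.4), a paired-box gene of neural crest and muscle precursors, and Otx1 (7.76), the close relative of Otx2. The muscle regulators gave 1 of 6, which was again Pax3, since it stands in both lists. Mesenchymal TF genes had a TSS peak at 10 of 12, with a median fold enrichment of 9.0, the highest at Tbx18 (11.8) and Snai2 (11.7) and the lowest at Prrx1 (3.65) and Zeb1 (4.46). Prrx2 and Tcf21 had none. Twist1, Prrx1 and Snai2 stand in this list and among the fibroblast markers.

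All 3 E protein genes that pair with the proneural factors had a TSS peak, with fold enrichments of 7.32 at Tcf3, 14.3 at Tcf4 and 7.23 at Tcf12. Of 9 genes of the ID and HES families, most of which restrain proneural factors, 7 had one, at a median of 8.10, with Hes6 (11.8), known instead as an antagonist of HES1 that favours neuronal differentiation, and Id4 (9.70) highest and Hey1 (3.06) and Id3 (6.02) lowest. Hes5 and Hey2 had none. The genes of REST's corepressors had a TSS peak at 15 of 16, Cdyl being the exception, with a median of 7.59. The histone deacetylase genes Hdac1 (14.2) and Hdac2 (12.9) were highest, and Ehmt2 (4.21), a histone methyltransferase gene, and Rcor2 (5.67) were lowest. Genes of the splicing regulators PTBP1 and PTBP2, whose balance changes when neurons form, both had one, at 7.49 and 10.6.

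The 18 REST targets were split, with a TSS peak at 10, or 55.6%, close to the 53.7% of all protein-coding genes. The median of the 10 was 6.06, below the 9.86 of all protein-coding genes with a TSS peak. Scn2a, a sodium channel gene, was highest at 18.6, followed by Syn1 at 9.19, and Grin1 (3.49) and Gria2 (3.94), both glutamate receptor genes, were lowest. At Scn2a the exact RE1 match lay 0.807 kb before the outermost TSS and 48.4 kb from the nearest peak, so the peak belonged to another of its annotated starts.

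**Figure D5:**
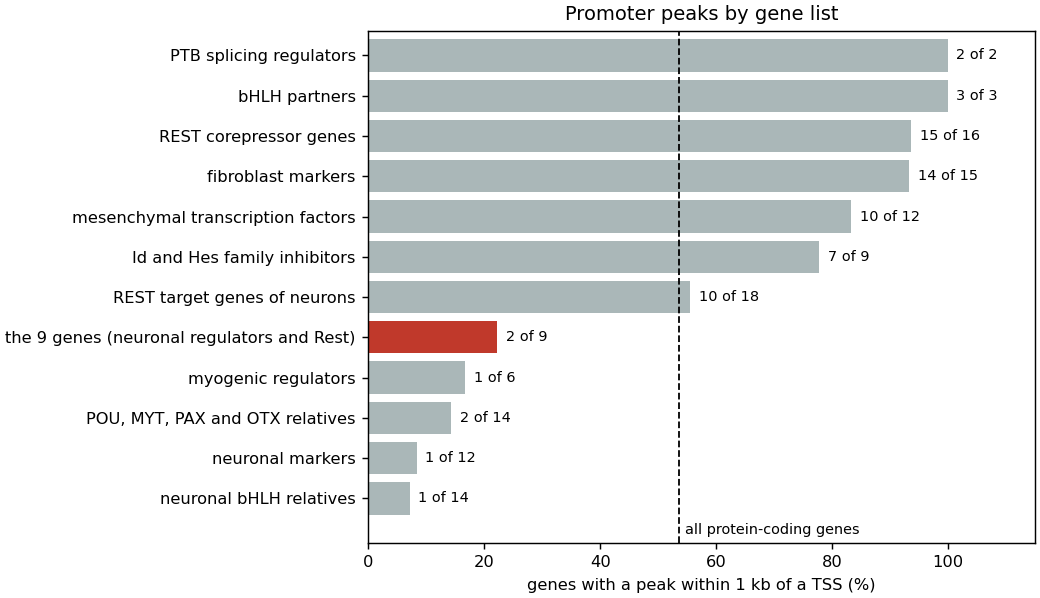
Bars give the percentage of genes in each list with a peak within 1 kb of a TSS (x axis), with the count beside each bar, and the dashed line marks the 53.7% of all protein-coding genes. The 9 genes (2 of 9) stand at 22.2%. The neuronal markers, the neuronal bHLH relatives, the POU, MYT, PAX and OTX relatives and the myogenic list are lower. The REST targets are at 55.6%. The corepressor list reaches 93.8%, the fibroblast list 93.3%, and the short lists of bHLH partners and PTB splicing regulators 100%.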

How the data were processed

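The data were the ATAC-seq peaks called in the single parental NIH-3T3 library. According to the submitters' processing notes and the methods, the authors aligned reads to mm10 with STAR 2.5.3a, removed duplicates with Picard and called peaks on whole fragments with MACS2 2.1.1.20160309. A shift of fragment ends for the Tn5 cut is not given in the sources used here. For every peak the authors deposited a ratio called fold enrichment, the −log10 values of p and q, and a score. The score was not used. The number of fragments under a summit follows from its p and fold enrichment under a Poisson model, and 99.997% came out within 0.02 of a whole number. The peak list does not hold the number of reads of this library, for which the methods give a range shared by all samples, and the intervals assume that fragments are independent. Peaks were assigned with GENCODE M21, 8 of the 9 genes matched the table of RefSeq promoters (GRCm38.p6), and positions are 1-based in mm10. A peak-free stretch runs between the nearest peaks to either side of the outermost TSS, and was set to 0 where a peak covers that TSS. The steps were tested on simulated data.

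The 9 genes and all gene lists were chosen with earlier results of these data known. The rule for names took all 9 genes with their TSS and body peaks and highest other peak, and in each list the 2 highest and 2 lowest fold enrichments and any up to 5 genes that stood out by having or lacking a TSS peak. The target genes with RE1-like places, and peaks named beyond this rule, were picked with their values in view. Alternatives tried were stricter limits on q and fold enrichment, other distances to the TSS, other TSS sets, other windows and other mismatch limits. Scripts ran under Python 3.11.15 with pysam 0.24.0, SciPy 1.17.1, pandas 2.3.3, NumPy 2.4.6 and matplotlib 3.10.9.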

Additional observations from a re-analysis of the deposited data

How the results depend on the processing

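The count of 2 genes with a TSS peak fell to 1, Rest alone, when the peak had to overlap the TSS base, when only transcripts tagged basic were used and when only the outermost 5′ end was used. It was 3 at 5 kb, with Neurod1 added. Under those first 3 settings Myt1l had no TSS peak and so no value. Stricter limits on q and fold enrichment left the same 2 genes. The 37 peaks within 50 kb became 23 at a fold enrichment of at least 5, 21 within 20 kb and 74 within 100 kb. The 1 RE1-like place in a peak became 0 with up to 1 mismatch, 3 with up to 3 (both added places near Rest) and 2 within 100 kb (the added place near Myt1l). The share of all protein-coding genes with a TSS peak, 53.7%, was 52.0% at a q of 1e-05, 48.8% at a fold enrichment of at least 5, 48.7% for overlap with the TSS base, 52.0% within 500 bp, 56.5% within 2 kb, 62.8% within 5 kb, 51.5% for basic transcripts, 48.9% for the outermost end and 53.0% by summit. The share of TSS-distal peaks near the 9 genes with the AP-1 sequence ranged from 15.8% to 33.3%, with the 2 highest values from wider windows. The share over all TSS-distal peaks was not counted in those wider windows, so these 2 values have no like comparison. No paired analysis was possible because the data are a single library. With 1 library, depth limits what an absent peak means, since no summit under 10 fragments was listed, and the caller's threshold was applied by the authors.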
